A study of Mus musculus with 4 samples.

Results

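The RNA levels of 10 genes of the epithelial-mesenchymal transition (EMT) were compared between mouse podocytes treated with IL-12 and control podocytes. These were the transcription factor genes Snai1, Snai2, Zeb1, Zeb2, Twist1 and Twist2, the cadherin genes Cdh1, Cdh2 and Cdh11, and the EMT marker gene S100a4. They were chosen by symbol, and each symbol matched a single gene among the 54532 genes of the deposited table. These genes, and the gene lists used below, were chosen with earlier results of these data known. The study asked how IL-12, a cytokine of the immune system, acts on podocytes, the cells of the kidney's filtration barrier. The cells were MPC5, a conditionally immortalized mouse podocyte line that proliferates with interferon-γ at a lower temperature and differentiates once the interferon-γ is withdrawn. Which of these states the sequenced cells were in is not stated. The treated cells received IL-12 at 400 ng/ml over 6 h and gave 2 libraries, and the control cells received saline and gave 2 libraries as well. The time at which the control cells were collected is not stated. All 4 libraries came from this single line, and the labels name no other agent or genetic change. No source states that the 2 libraries within each group were made from different cultures, so the p-values measure only the spread between these libraries, which may be technical.

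In EMT, epithelial cells lose their junctions and apical-basal polarity and gain a mesenchymal, motile form. Snail, ZEB and Twist proteins are DNA-binding factors that bind E-box sequences, and Snail and ZEB factors repress the E-cadherin gene Cdh1 through them, while N-cadherin (Cdh2) and other mesenchymal proteins are gained, a change known as the cadherin switch. Podocytes are specialized epithelial cells that carry mesenchymal features such as vimentin, and in injured podocytes an EMT-like change, with loss of slit diaphragm proteins and gain of mesenchymal markers, has been described.

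The 4 libraries held between 18355379 and 20098012 counts in genes, and 14095 genes had enough counts to be tested. At this depth, a gene with 3 counts, taken as the detection floor, lay between 0.149 and 0.163 CPM (counts scaled to the size of each library). The podocyte label was only partly borne out by marker genes. The slit diaphragm gene Nphs1 and the transcription factor genes Lmx1b and Tcf21 had at most 3 counts in each library, and Wt1 had between 4 and 16 counts. Actn4, Kirrel, Synpo and Cd2ap, which encode cytoskeletal and slit diaphragm proteins, had between 5148 and 26162 counts. Markers of other cell types were mixed as well. Of 6 proximal tubule markers, Slc5a2, Slc34a1 and Hnf4a were at 0 in each library, while Lrp2 had between 10086 and 12482 counts, Aqp1 between 790 and 1720 and Cubn between 30 and 44. Of 6 leukocyte markers, 4 had at most 3 counts in each library and Ptprc had between 1 and 12, whereas Csf1r had 405 and 434 counts in the control group against 219 and 236 after IL-12 and was lower (edgeR's quasi-likelihood test, log2 fold change -0.88, adjusted p = 3.41e-06). Csf1r was named after its values were seen. The part of these markers in the results was not tested. These are bulk samples, in which fewer cells of a type and less RNA per cell cannot be told apart.

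Of the 10 genes, 9 had enough counts to be tested and Cdh1 had not. Snai2, Zeb1, Zeb2, Twist1 and Cdh11 were upregulated in the IL-12 treatment group, Cdh2 was downregulated, and Snai1, Twist2 and S100a4 did not pass the threshold of an adjusted p of 0.05 (edgeR's quasi-likelihood test, Benjamini-Hochberg adjustment over the 14095 genes). The 5 higher and the 1 lower of 9 tested genes stood beside 16.1% of all tested genes that were higher and 14.4% that were lower. The changes were small, at most 1.58-fold, but their median size was above that of all tested genes. The median log2 fold change of the 9 genes was 0.31, against -0.00 for all tested genes. Regardless of direction, the median size of the change was 0.31 for the 9 genes, against 0.159 among all tested genes. None of the 10 genes passed the threshold with a change over 2-fold in edgeR's quasi-likelihood test, the DESeq2 Wald test or limma voom, where 1.61% of all tested genes did in the first of these. At an unadjusted p under 0.05, 6 of them passed and 0 of these were over 2-fold, beside 39.4% and 2.06% of all tested genes. In 8 of the 9 tested genes the CPM of the groups did not overlap, as in 62.9% of all tested genes.

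**Figure D1:**
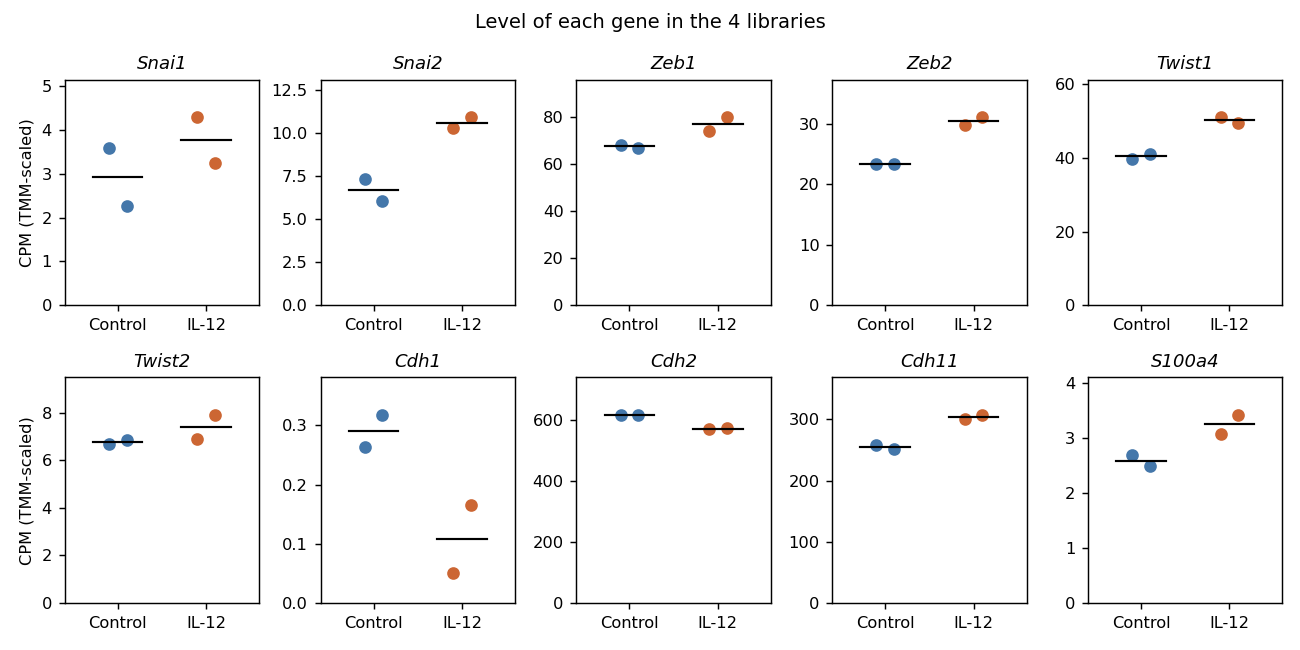
Level of each of the 10 genes in every library. Each panel is 1 gene with its own axis in CPM starting at 0, each point is 1 library (2 Control in blue, 2 IL-12 in orange), and lines are group means. The groups are apart in each panel other than that of Snai1, narrowly so for Twist2, and Cdh1 reaches at most 0.318 CPM.

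Levels were compared between genes in TPM, in which each count is divided by the length of the gene before it is scaled to the library. In control podocytes Cdh2 had the highest level of the 10 genes, with a mean of 285 TPM, and Cdh11 followed with 107 TPM. Twist1 (92.6 TPM) was the most abundant of the transcription factor genes, above Zeb1 (24.5 TPM). S100a4 (16.5 TPM), Snai2 (12.4 TPM), Twist2 (7.95 TPM), Snai1 (6.75 TPM) and Zeb2 (4.36 TPM) were lower, and Cdh1 (0.237 TPM) was the lowest. The order was the same in the IL-12 treatment group. Twist2 and Snai1 could not be ordered, since their libraries overlapped in both groups, and S100a4 and Snai2 overlapped in the IL-12 treatment group. The rank of Zeb2 and Snai1 depended on the length used: with the length of the longest coding transcript, Zeb2 ranked 8 and Snai1 ranked 9. Of these 10 genes, control podocytes thus carried RNA of Twist1, Zeb1, Cdh2 and Cdh11, and next to none of the E-cadherin gene. Cadherin genes outside the 10 were present as well. In the control group Cdh16 (199 TPM) and Cdh3 (174 TPM) lay above Cdh11. Cdh24 (62.6 TPM), Cdh6 (36.2 TPM) and Cdh26 (15.3 TPM) lay below it.

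Promoter sequences are shown for Snai1, Zeb2 and Twist1, because 2 of these windows held a motif searched for and the third, of the most abundant factor gene, held none. RefSeq (GRCm38.p6) gave windows from 250 bases before to 50 bases after the start for Snai1, Zeb2, Twist1, Twist2 and S100a4, and 4 such windows for Zeb2. The motifs were the E-box CACCTG, bound by Snail and ZEB factors, and TGACTCA, bound by AP-1, each searched on both strands. Among all 32851 windows of 300 bases, 20.2% held the E-box and 5.20% held the AP-1 motif. The Snai1 window, chr2:167537945-167538244 on the plus strand, held 1 E-box, 126 bases before the start. The Zeb2 window at chr2:45110228-45110527, on the minus strand, held the AP-1 motif 189 bases before the start, read from the other strand, and again 132 bases before the start. The other 3 Zeb2 windows held neither motif, among them the window nearest to the annotated start of the gene, and the window shown belongs to a start inside the gene. The Twist1 window, chr12:33957421-33957720 on the plus strand, held neither. These matches are descriptions of the letters and show no binding. Each sequence runs from 5′ to 3′ on the gene's strand, and capitals mark the motif.
Snai1: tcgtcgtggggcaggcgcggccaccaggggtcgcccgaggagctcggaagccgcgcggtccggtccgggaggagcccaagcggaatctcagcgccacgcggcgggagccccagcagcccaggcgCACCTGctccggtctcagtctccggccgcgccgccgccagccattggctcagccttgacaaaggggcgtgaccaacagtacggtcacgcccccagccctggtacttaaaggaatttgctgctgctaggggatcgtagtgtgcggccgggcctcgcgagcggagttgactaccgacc
Zeb2: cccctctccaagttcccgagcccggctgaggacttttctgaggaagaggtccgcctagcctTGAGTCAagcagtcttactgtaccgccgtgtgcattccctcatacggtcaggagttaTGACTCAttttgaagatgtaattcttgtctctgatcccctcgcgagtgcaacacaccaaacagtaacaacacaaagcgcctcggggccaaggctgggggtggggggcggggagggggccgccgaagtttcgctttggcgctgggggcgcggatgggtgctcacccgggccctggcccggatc
Twist1: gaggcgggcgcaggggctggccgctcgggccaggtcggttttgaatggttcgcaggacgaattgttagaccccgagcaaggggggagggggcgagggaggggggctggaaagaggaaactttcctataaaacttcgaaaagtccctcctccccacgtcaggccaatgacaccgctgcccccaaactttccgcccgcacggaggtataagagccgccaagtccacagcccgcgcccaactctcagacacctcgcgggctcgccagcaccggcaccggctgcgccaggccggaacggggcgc

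Snail factors are zinc finger repressors. Snai1 (ENSMUSG00000042821, GRCm38 chromosome 2, 167538195 to 167542814, plus strand) encodes Snail, and Snai2 (ENSMUSG00000022676, chromosome 16, 14705852 to 14709385, plus strand) encodes Slug. Snai2 gave 139 and 115 counts in the control group against 204 and 198 after IL-12. Scaled to CPM, these were 7.33 and 6.09 against 10.3 and 10.9. Both IL-12 libraries lay above both control libraries, and of the 10 genes Snai2 had the largest tested change. Its mean rose from 6.71 ± 0.879 to 10.6 ± 0.446 CPM (SD, n = 2 libraries each), a 1.58-fold difference (95% interval 1.29 to 1.94; log2 fold change 0.66, SE 0.14, adjusted p = 0.0012 in edgeR's quasi-likelihood test). Snai1 gave 68 and 43 counts in the control group against 85 and 59 after IL-12, or 3.59 and 2.28 CPM against 4.29 and 3.26 CPM. The groups overlapped, since the first control library lay above the second IL-12 library. The fold difference of Snai1 was 1.29 with an interval from 0.909 to 1.84 (edgeR's quasi-likelihood test, log2 fold change 0.37, SE 0.24, adjusted p = 0.281), so that neither no change nor a rise like that of Snai2 lay outside it. Its log2 fold change was 0.08 without Control 2 and 0.74 without Control 1.

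The family's other gene, Snai3, stood outside the rule for naming genes and was chosen after its values were seen. It gave 41 and 37 counts in the control group against 85 and 72 after IL-12. The groups did not overlap, and Snai3 was 2.01-fold higher (SE 0.22 on the log2 scale, adjusted p = 0.0019 in edgeR's quasi-likelihood test). In the summed TPM of the 3 Snail genes, Snai2 made up 52.1% in the control group and 52.0% in the IL-12 treatment group, while Snai1 went from 27.9% to 22.9% and Snai3 from 20.0% to 25.1%. Differences in these shares were not tested.

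ZEB factors are zinc finger and homeodomain repressors that form a mutually inhibitory loop with the miR-200 family. Zeb1 (ENSMUSG00000024238, chromosome 18, 5591860 to 5775467, plus strand) gave 1291 and 1261 counts in the control group against 1460 and 1443 after IL-12, and its CPM were 68.1 and 66.7 against 73.7 and 79.7. The groups were separate, but the IL-12 libraries lay further from each other than the control libraries did. Zeb1 rose 1.14-fold (interval 1.05 to 1.23; log2 fold change 0.19, SE 0.05, adjusted p = 0.012 in edgeR's quasi-likelihood test). This call was lost in 5 of 14 alternative settings, among them the DESeq2 Wald test (adjusted p = 0.0785) and the fit without IL-12 2 (edgeR's quasi-likelihood test, log2 fold change 0.13, adjusted p = 0.161).

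Zeb2 (ENSMUSG00000026872, chromosome 2, 44983632 to 45117395, minus strand) had 441 counts in each control library and 588 and 562 counts in the IL-12 libraries. In CPM these were 23.3 and 23.3 against 29.7 and 31.0, so that the groups were separate and the control libraries all but equal. The mean rose from 23.3 ± 0.062 to 30.4 ± 0.947 CPM (SD, n = 2 each), a 1.30-fold difference (interval 1.16 to 1.46; log2 fold change 0.38, SE 0.08, adjusted p = 0.000893 in edgeR's quasi-likelihood test). Both fits to the deposited FPKM values lost the call, with limma adjusted p-values of 0.111 with a pseudocount of 0.1 and 0.0847 with a pseudocount of 1. Zeb1 made up 84.9% of the summed ZEB TPM in the control group and 83.1% in the IL-12 treatment group. A list of 7 genes held the miR-200 family, Mir205 and the Zeb2 antisense gene Zeb2os. None of these could be tested, 5 were at 0 in each library, Mir200b had 1 count and Zeb2os had 6 counts over the 4 libraries. Gene counts of this kind do not measure mature miRNA.

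Twist factors are basic helix-loop-helix proteins that bind DNA as dimers with E proteins. Twist1 (ENSMUSG00000035799, chromosome 12, 33957671 to 33959829, plus strand) gave 752 and 777 counts in the control group against 1010 and 895 after IL-12. The CPM were 39.7 and 41.1 against 51.0 and 49.4, and the groups were well separated. Its mean rose from 40.4 ± 1.04 to 50.2 ± 1.12 CPM (SD, n = 2 each), or 1.24-fold (interval 1.14 to 1.36; log2 fold change 0.31, SE 0.06, adjusted p = 0.000575 in edgeR's quasi-likelihood test). Twist2 (ENSMUSG00000007805, chromosome 1, 91801461 to 91848028, plus strand) had 127 and 129 counts against 136 and 143 counts. Its CPM of 6.70 and 6.83 lay just below the IL-12 values of 6.87 and 7.90, whereas on the TPM scale the groups overlapped. The fold difference was 1.09 (interval 0.88 to 1.35; log2 fold change 0.12, SE 0.15, adjusted p = 0.584 in edgeR's quasi-likelihood test). Twist2 also overlaps the antisense gene Gm29100, which had 150 counts over the 4 libraries beside 535 for Twist2. Whether counting used the strand was not stated, so reads of these genes may not be told apart. Twist1 made up 92.1% of the summed Twist TPM in the control group and 93.0% in the IL-12 treatment group.

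**Figure D2:**
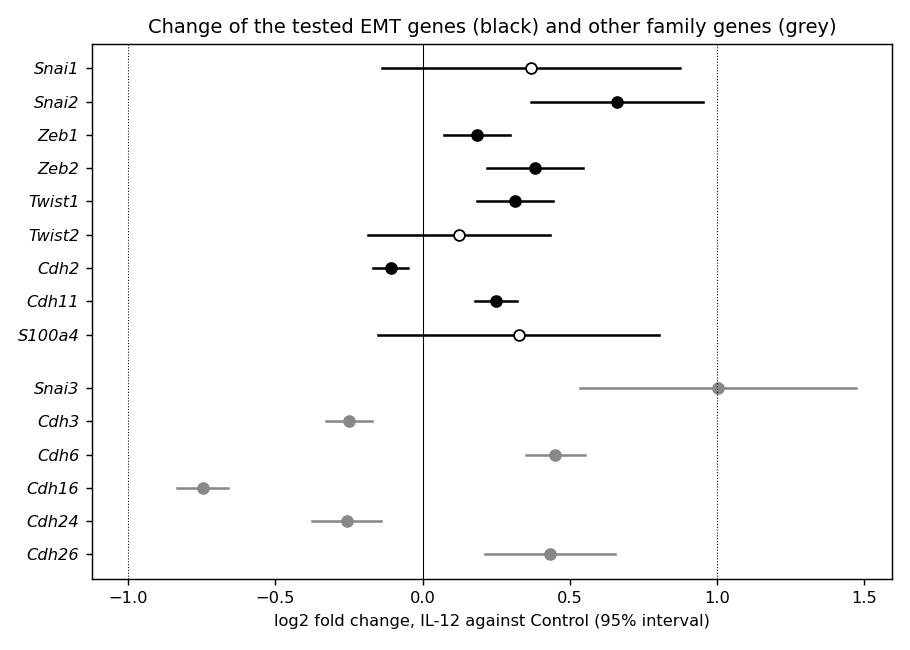
Log2 fold change of IL-12 against Control for the 9 tested genes (black) and for other Snail and cadherin genes (grey). Points are estimates of edgeR's quasi-likelihood fit, filled where the adjusted p was under 0.05, bars are 95% intervals and dotted lines mark a 2-fold change. Among the black points Snai2 lies furthest to the right, at 0.66, and Cdh2 alone lies left of 0, at -0.11.

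The intervals ranked the upregulated genes only in part. The interval of Snai2 (log2 fold change 0.37 to 0.95) lay above that of Cdh11 (0.18 to 0.32) and that of Zeb1 (0.07 to 0.30), but it overlapped those of Zeb2 (0.22 to 0.54) and Twist1 (0.19 to 0.44). Differences between genes were not tested.

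Cadherins are calcium-dependent adhesion proteins whose intracellular part binds catenins. E-cadherin is the cadherin of most epithelia, while N-cadherin and cadherin-11 are typical of mesenchymal cells. Cdh1 (ENSMUSG00000000303, chromosome 8, 106603351 to 106670246, plus strand) gave 5 and 6 counts in the control group against 1 and 3 after IL-12. These counts were at or close to the detection floor in each library. Pooled over libraries, 4 counts against 11 gave a ratio of CPM of 0.363 with an exact counting interval from 0.0843 to 1.23, so no difference was detectable at this depth. In the fit without a filter on low counts, the adjusted p of Cdh1 was 0.480 (edgeR's quasi-likelihood test).

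Cdh2 (ENSMUSG00000024304, chromosome 18, 16588877 to 16809246, minus strand) gave 11678 and 11616 counts in the control group against 11258 and 10371 after IL-12. The CPM were 616 and 615 against 569 and 573, with very little spread within a group. N-cadherin RNA thus fell by a small amount, to 0.927 of the control level (interval 0.891 to 0.965; log2 fold change -0.11, SE 0.03, adjusted p = 0.00546 in edgeR's quasi-likelihood test). The fits to FPKM values gave nearly the same log2 fold change of -0.11, with limma adjusted p-values of 0.0519 (pseudocount 0.1) and 0.0501 (pseudocount 1). Cdh11 (ENSMUSG00000031673, chromosome 8, 102632095 to 102785642, minus strand) moved the other way, with 4908 and 4753 counts in the control group against 5944 and 5560 after IL-12. Its CPM of 300 and 307 in the IL-12 libraries lay above the 259 and 252 of the control libraries. The mean rose from 255 ± 5.11 to 304 ± 4.84 CPM (SD, n = 2 each), or 1.19-fold (interval 1.13 to 1.25; log2 fold change 0.25, SE 0.03, adjusted p = 1.45e-05 in edgeR's quasi-likelihood test), the smallest adjusted p of the 10 genes.

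The other cadherins changed in both directions. Of 19 listed, 10 were at 0 in each library and 5 could be tested, of which 2 rose and 3 fell, with a median log2 fold change of -0.25. Cdh16, the kidney-specific cadherin of tubules, went from 207 and 197 CPM to 122 and 119 CPM (log2 fold change -0.75, SE 0.04, adjusted p = 1.43e-10 in edgeR's quasi-likelihood test). Cdh3, which encodes P-cadherin, described at the slit diaphragm of podocytes, went from 208 and 202 to 171 and 174 CPM (edgeR's quasi-likelihood test, log2 fold change -0.25, SE 0.04, adjusted p = 4.8e-05). Cdh6, a cadherin of the developing nephron, went the other way, from 90.5 and 84.7 to 119 and 120 CPM (edgeR's quasi-likelihood test, log2 fold change 0.45, SE 0.05, adjusted p = 7.21e-07). Cdh24 was lower (log2 fold change -0.26) and Cdh26, which was named after its values were seen, was higher (log2 fold change 0.43), a call lost without IL-12 1 (edgeR's quasi-likelihood test, log2 fold change 0.36, adjusted p = 0.0768).

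**Figure D3:**
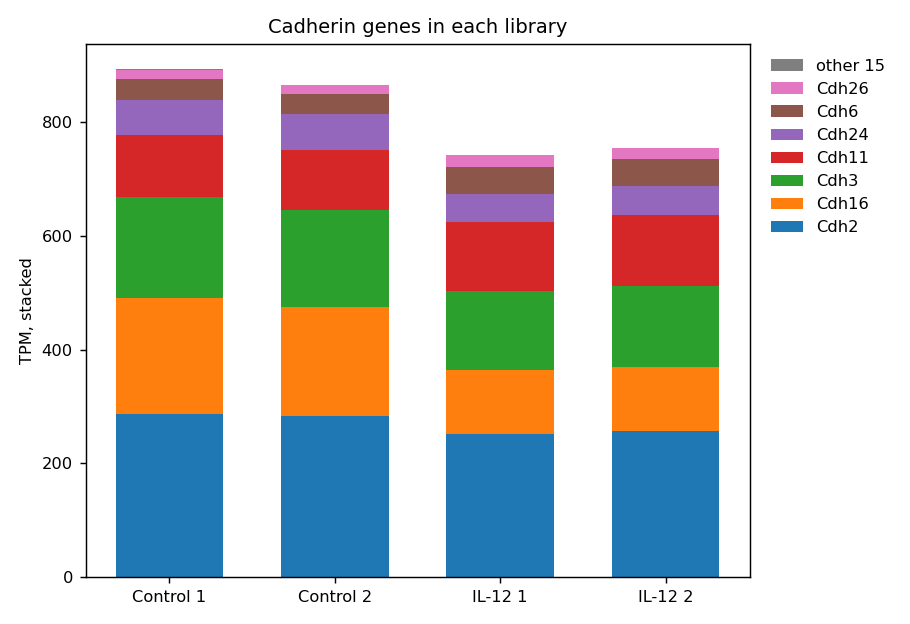
Make-up of the summed cadherin level. Each bar is 1 library, its height is the summed TPM of 22 cadherin genes, starting at 0, and colours are genes, with the 15 lowest joined in grey. The IL-12 bars are lower, 743 and 756 TPM against 893 and 866 TPM, with a smaller Cdh16 segment.

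In the summed TPM of the 22 cadherin genes, the share of Cdh11 went from 12.2% ± 0.066 to 16.3% ± 0.233 (SD, n = 2 each). The share of Cdh2 was 32.4% ± 0.436 in the control group and 33.9% ± 0.117 in the IL-12 treatment group, although its own level was lower, because the summed level fell as well. Cdh16 went from 22.6% to 15.2% and Cdh6 from 4.12% to 6.35%, whereas Cdh1 made up 0.027% and 0.011%. Cdh1 thus had the smallest part of the cadherins named here in either group. Markers of other kidney epithelia moved beside these results. Of 6 proximal tubule markers 2 were lower (Lrp2, Aqp1), 3 were at 0 in each library, and their summed level was 278 and 269 TPM in the control libraries against 165 and 181 TPM in the IL-12 libraries. Of 6 parietal epithelial markers 3 were lower (Cd24a, Pax2, Pax8), with sums of 1138 and 1101 TPM against 815 and 841 TPM. Of the others, Cldn1 did not pass (log2 fold change -0.003). Krt8, with 0 to 11 counts in a library, and Krt18, with 6 to 12, had too few counts to be tested. The part of the tubule and parietal markers in the cadherin results was not tested.

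S100a4 (ENSMUSG00000001020, chromosome 3, 90603771 to 90606045, plus strand) encodes a small calcium-binding protein, also called fibroblast-specific protein, that is widely used as an EMT marker in the kidney. It gave 51 and 47 counts in the control group against 61 and 62 after IL-12, or 2.69 and 2.49 against 3.08 and 3.42 CPM. Both IL-12 libraries lay above both control libraries. The difference nevertheless did not pass the test, with a fold difference of 1.25 and an interval from 0.901 to 1.74 (edgeR's quasi-likelihood test, log2 fold change 0.33, SE 0.23, adjusted p = 0.314). At these counts the interval holds no change as well as changes larger than those of Twist1 or Cdh11. S100a4 made up 0.166% of the summed TPM of the S100 genes in the control group and 0.203% in the IL-12 treatment group, where S100a6 made up 55.5% in the control group. Of 15 other S100 genes, 8 could be tested, of which S100a7a (log2 fold change 1.06) and S100a6 (0.10) rose and none fell. S100a7a had 211 counts in each control library and 471 and 409 in the IL-12 libraries (SE 0.10, adjusted p = 1.54e-07 in edgeR's quasi-likelihood test). S100a6 kept its call in 8 of 14 settings and lost it without Control 1 (log2 fold change 0.08) and without IL-12 1 (log2 fold change 0.05).

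Of 16 other transcription factor genes linked to EMT, 9 could be tested, 3 rose, 2 fell and 4 did not pass, with a median log2 fold change of -0.14. For this list and for the lists of junction, cadherin, E protein and S100 genes, the shares over all tested genes were the 16.1% higher and 14.4% lower given above. The largest change was that of Hmga2, an architectural chromatin protein active in embryonic and tumour cells, with 56.5 and 60.4 CPM in the control group against 218 and 215 after IL-12. Its log2 fold change was 1.89 (SE 0.05, adjusted p = 1.29e-15 in edgeR's quasi-likelihood test), which was larger than that of any of the 10 genes. Runx2, the osteoblast factor, rose (log2 fold change 0.43, SE 0.08), as did Snai3. Sox4 went from 239 and 243 to 196 and 190 CPM (edgeR's quasi-likelihood test, log2 fold change -0.32, SE 0.04, adjusted p = 1.95e-06), and Foxc1 was lower by a like amount (log2 fold change -0.30, SE 0.06).

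Twist proteins pair with E proteins, and ID proteins take E proteins away from DNA. Of these 7 genes, all tested, 2 rose, 1 fell and 4 did not pass. Id2 rose from 148 and 148 to 175 and 170 CPM (edgeR's quasi-likelihood test, log2 fold change 0.22, SE 0.04, adjusted p = 0.000228), and Id1 had a log2 fold change of 0.17 (SE 0.04), a call lost without IL-12 1 (log2 fold change 0.15). Tcf3, the gene of the E proteins E12 and E47, fell by 0.13 on the log2 scale (SE 0.04), a call lost in 6 of 14 settings, among them without Control 1 (log2 fold change -0.10) and without IL-12 2 (log2 fold change -0.09). Id3 did not pass, with a log2 fold change of 0.01.

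The 24 regulators and cofactors of Snail and ZEB proteins were all tested, and 3 rose, 4 fell and 17 did not pass, which made 29.2% past the threshold in either direction, close to the 16.1% higher and 14.4% lower among all tested genes. Lats2, a Hippo kinase that phosphorylates Snail, rose from 89.3 and 92.7 to 122 and 120 CPM (edgeR's quasi-likelihood test, log2 fold change 0.41, SE 0.05, adjusted p = 1.24e-06). Usp27x, a deubiquitinase that acts on Snail, rose as well (log2 fold change 0.55, SE 0.10). Ctbp2, a corepressor of ZEB factors, fell (log2 fold change -0.28, SE 0.04), and so did Fbxo11, a ubiquitin ligase component that targets Snail (log2 fold change -0.20, SE 0.05). Ctbp1, the other corepressor of that pair, did not pass (log2 fold change 0.03). Without IL-12 1, 3 of the 24 genes passed in place of 7, and Fbxo11 was among those lost. Ajuba, a Snail cofactor, lost its call in 11 of 14 settings.

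**Figure D4:**
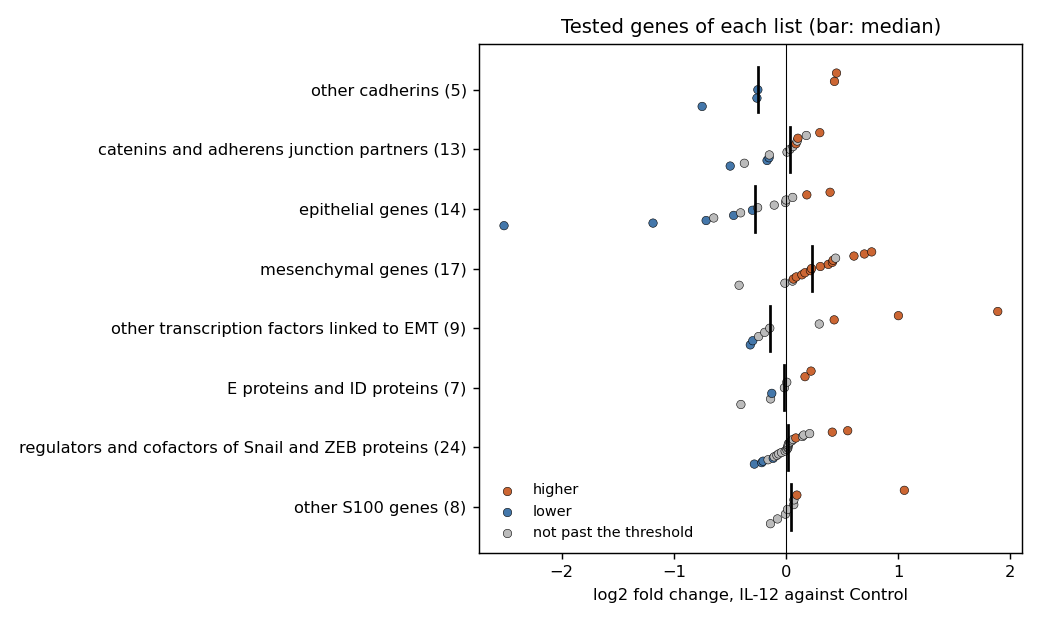
Genes of the lists around the 10 genes. Each point is the log2 fold change of 1 tested gene from edgeR's quasi-likelihood fit, orange where higher and blue where lower at an adjusted p under 0.05, grey where not past, and bars are list medians, with the number tested beside each list. Mesenchymal genes that passed lie right of 0, whereas epithelial genes that passed lie on both sides.

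Of 22 mesenchymal genes listed, 17 were tested, 13 rose, none fell and 4 did not pass, with a median log2 fold change of 0.23, beside the 16.1% of all tested genes that were higher. With either fit to FPKM values, 8 of the 17 passed. Genes with many counts pass with smaller changes, and the list was not matched for counts to all tested genes. Fn1, which encodes fibronectin, went from 3026 and 3060 CPM in the control group to 3943 and 3970 after IL-12 (edgeR's quasi-likelihood test, log2 fold change 0.38, SE 0.02, adjusted p = 1.68e-10). Itgb1, the integrin β1 chain of the fibronectin receptor, rose (log2 fold change 0.41, SE 0.02), as did Col5a1, a fibrillar collagen chain (log2 fold change 0.42, SE 0.04), and Tnc, which encodes tenascin-C (log2 fold change 0.31, SE 0.03). Sparc, a matrix protein gene, did not pass (log2 fold change -0.01).

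Epithelial genes changed in both directions. Of 33 listed, 14 could be tested, 2 rose, 5 fell and 7 did not pass, with a median log2 fold change of -0.28, beside 16.1% higher and 14.4% lower among all tested genes, and Epcam, Ocln, Cldn3, Krt19, Esrp1, Ovol2, Dsc2 and Dsg2 were at 0 in each library. F11r, which encodes the tight junction protein JAM-A, fell from 102 and 110 to 85.5 and 87.0 CPM (edgeR's quasi-likelihood test, log2 fold change -0.30, SE 0.05, adjusted p = 0.000121). Elf3, an epithelial transcription factor gene, fell as well (log2 fold change -0.71, SE 0.16), and so did Tjp3, with 73 and 81 counts in the control group against 49 and 19 after IL-12 (log2 fold change -1.19, SE 0.29). Without IL-12 2, Tjp3 had a log2 fold change of -0.71 and an adjusted p of 0.0747 in edgeR's quasi-likelihood test. Cgn, the cingulin gene of tight junctions, rose (log2 fold change 0.39, SE 0.09), a call also lost without IL-12 2 (log2 fold change 0.36). Tjp1, the gene of ZO-1, did not pass (log2 fold change 0.06). Of the epithelial genes, 4 passed in place of 7 when either IL-12 library was left out. The lower tubule and parietal epithelial markers given above (Lrp2, Aqp1, Cd24a, Pax2 and Pax8) moved beside this list too, and their part was not tested. The parietal markers Cldn1, Krt8 and Krt18 also belong to this list. Of these Cldn1 was tested and did not pass, and Krt8 and Krt18 had too few counts.

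Catenins link cadherins to actin. Of 15 catenin and adherens junction genes 13 could be tested, 3 rose, 3 fell and 7 did not pass, with a median log2 fold change of 0.04. Vcl, which encodes the actin-binding protein vinculin, rose from 484 and 478 to 599 and 589 CPM (edgeR's quasi-likelihood test, log2 fold change 0.30, SE 0.03, adjusted p = 1.81e-07). Arvcf, a p120-catenin family gene, fell from 54.9 and 56.0 to 40.4 and 38.2 CPM (edgeR's quasi-likelihood test, log2 fold change -0.50, SE 0.06, adjusted p = 4.01e-06). Ctnnb1, the β-catenin gene, did not pass (log2 fold change 0.06). Ctnna1, the α-catenin gene, had a log2 fold change of 0.09 and Jup, the plakoglobin gene, one of 0.11, calls lost in 5 and 8 of 14 settings. Of the 13 genes, 3 passed without Control 1, 2 without IL-12 1 and 3 without IL-12 2, in place of 6.

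**Figure D5:**
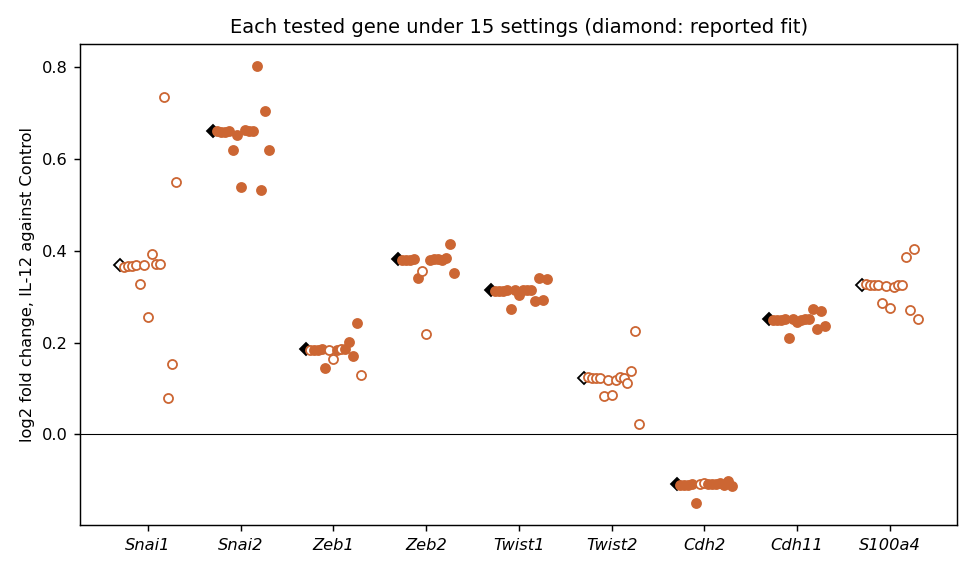
Log2 fold change of the 9 tested genes as reported (diamonds) and in 14 alternative settings (circles). Symbols are filled where the adjusted p was under 0.05. Each gene stayed on its side of 0, and the points of Snai1 are spread widest, from 0.08 to 0.74.

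The directions of the 9 tested genes were kept in each of the 14 alternative settings. Snai2, Twist1 and Cdh11 also kept their calls in each setting, with log2 fold changes from 0.53 to 0.80, from 0.27 to 0.34 and from 0.21 to 0.27, and Snai1, Twist2 and S100a4 passed in none. Of the 10 genes, 6 overlap other annotated genes, 16 in all, and none of these had more than the 150 counts of Gm29100. Gm10125, antisense to Zeb1, had 56 counts beside 5455 for Zeb1.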

How the data were processed

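RNA-seq of 4 MPC5 libraries, 2 Control and 2 IL-12, was measured. The deposited table held whole-number counts per gene and FPKM values from the authors, with gene lengths and positions. Per the labels, HISAT2 and StringTie were used, with no versions; the submitters' notes name mm9, but the deposited gene positions equalled GENCODE M21 (GRCm38) for 98.3% of 54409 shared genes, and that build is used here. The deposited FPKM was each count per kilobase times a constant per library, so it adds no information on depth. A trimming step or strand setting is not given in the sources used here.

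Counts were scaled by TMM, filtered with filterByExpr (minimum count 10, minimum total 15) and tested with edgeR 4.0.16 (glmQLFit, glmQLFTest; R 4.3.3) over 14095 genes, with Benjamini-Hochberg adjustment and a threshold of 0.05. CPM used TMM-scaled library sizes, and TPM used counts and deposited gene lengths. Intervals are 95%, and the exact counting interval of Cdh1 and the floor of 3 counts cover counting error only. The smallest p of an exact permutation test on 2 against 2 libraries is 0.333, so none was used. The script was tested on simulated data.

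The genes and lists were chosen with earlier results of these data known. Named were the 10 genes, from each list up to 4 genes past the threshold with the smallest p-values plus the 2 with the highest mean TPM, and genes overlapping the 10 genes. Exceptions are stated. Alternatives were DESeq2 1.42.0 (size factors; Wald test), library totals only, edgeR's likelihood ratio test, limma 3.58.1 (voom; log2(FPKM + 0.1) and log2(FPKM + 1)), 2 other filters, the replicate number as a block and leaving out each library. Levels per longest coding transcript were added after seeing the data. Control replicates, and likewise IL-12 replicates, differed by more than counting noise (chi-square per degree of freedom 2.13 and 2.41), so each library was counted as 1 sample. This does not show how the replicates were made.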

Additional observations from a re-analysis of the deposited data

How the results depend on the processing

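Of the 10 genes, 5 were higher and 1 was lower in IL-12, and none reversed in any of 14 alternatives. With limma on log2(FPKM + 0.1) and on log2(FPKM + 1), 3 were higher and 0 lower in each. No gene of the 10 passed with a change over 2-fold in any alternative, the DESeq2 Wald test and limma voom included. Over all genes the counts moved too. Against 2267 higher, 2030 lower and 227 over 2-fold in the edgeR fit, the DESeq2 Wald test gave 1492, 1213 and 103, limma on log2(FPKM + 1) gave 1606, 1280 and 38 and on log2(FPKM + 0.1) 1625, 1277 and 141, the fit without IL-12 replicate 1 gave 1404, 1124 and 144, and without IL-12 replicate 2 1661, 1391 and 176. Of the genes past the threshold 52.8% were higher, and 40.5% with library totals only. Among the lists, catenin and adherens junction genes past the threshold were 6, then 3 with the DESeq2 Wald test, 2 with each FPKM fit and 4 with no low count filter, and from 2 to 4 with a library left out. Epithelial genes went from 7 to 4 with the DESeq2 Wald test, where 1 called gene had no adjusted p, and 3 with each FPKM fit, and from 4 to 8 with a library left out. Mesenchymal genes went from 13 to 8 with each FPKM fit. Regulators of Snail and ZEB proteins ranged from 3 to 8 with a library left out and reached 9 with library totals only, against 7, and other S100 genes were 1 against 2 with each FPKM fit, 1 with no low count filter and 1 to 2 with a library left out. The replicate block left 5 of the 10 genes higher and 1 lower, with 2272 higher and 2069 lower genes in all, and among the genes named it ended only the call of Ajuba (adjusted p = 0.0928, edgeR's quasi-likelihood test). Deviations of same-numbered libraries from their group means correlated at -0.027 over 14095 genes, so no shared shift was seen. With 2 libraries in a group, this cannot show whether same-numbered libraries were prepared together. Depth limited Cdh1, with at most 6 counts in a library, and the SEs of Snai1 and S100a4, 0.24 and 0.23, were the largest of the 9 tested genes.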
